A study of Mus musculus with 12 samples.

Results

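Cytosolic ribosomal proteins form the protein part of the ribosome, the particle that reads messenger RNA and joins amino acids. The small subunit (Rps genes) decodes the message, the large subunit (Rpl genes) makes the peptide bond, and a flexible stalk on the large subunit (Rplp0, Rplp1 and Rplp2) recruits the elongation factors. Their messages are among the most abundant of a growing cell, and many start with a run of pyrimidines through which mTOR signalling controls their translation. In the mouse array data examined here they were chosen by name, as every annotated symbol of the form Rpl or Rps followed by a digit, with the 3 stalk genes and Rpsa, without the Rps6k kinases and without pseudogene symbols. This gave 65 symbols with 96 probes out of 19031 symbols and 45135 probes. One of them, Rps19bp1, encodes a protein that binds Rps19 and is not itself part of the ribosome.

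Prostate cells of C57Bl/6 mice had been grown under stem cell conditions either attached to the dish as a monolayer or as floating spheroids. Their total RNA, converted to biotinylated cRNA, was hybridised to Illumina bead arrays. There were 3 cultures, an adherent culture of mouse 1, an adherent culture of mouse 2 and a spheroid culture of mouse 1, each with 3 replicate arrays and an array of the pooled replicates, 12 arrays in all. No agent, transgene or other allele is named for any group, and age is not given in the labels. Spheroids came from mouse 1 alone, so only the comparison within mouse 1 holds the animal constant, and nothing says that replicates are separate cultures, so that the p-values measure the spread between these arrays, which may be technical. Intensities were corrected for background, quantile normalised over the arrays and put on a log2 scale, and a gene was tested where a probe was detected (detection p under 0.05) on all 3 arrays of at least 1 culture, with its brightest such probe standing for it. A probe's brightness depends on its sequence, so levels are compared between arrays; where probes are grouped by brightness, this describes the signal and not the amount of transcript.

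All 5 basal markers examined (Krt5, Krt14, Krt15, Trp63 and Itga6) were detected in each culture, with a summed normalised intensity of 32000 to 37500 on adherent arrays and 47600 to 49700 on spheroid arrays. Of 5 luminal markers 3 were on the array, with 2 detected in adherent mouse 1 and 3 in each other culture. Their summed intensity was 6170 to 8030 on adherent arrays and 8060 to 8930 on spheroid arrays. Of 4 leukocyte markers on the array 1 was detected, in adherent mouse 2 alone. Of 3 endothelial markers 1 was detected in each culture, though not the same marker throughout, and Cdh5 in none. Among 5 fibroblast markers Col1a2 was detected in each culture, and the summed intensity of the list was 113 to 126 on adherent arrays and 109 to 138 on spheroid arrays. The fibroblast markers Col1a1, Col3a1, Dcn and Pdgfra were not detected on all arrays of any culture. Among 4 smooth muscle markers, Cnn1, Myh11 and Tagln were likewise not detected, while the summed normalised intensity of the list, carried by Acta2, was 20800 to 28000 on adherent arrays and 1530 to 1570 on spheroid arrays. The summed intensity of 3 neuroendocrine markers, of which Chga and Syp were not detected, was 182 to 337 on adherent arrays and 79.7 to 97.3 on spheroid arrays. The part of these markers in the results below was not tested. The first replicate of adherent mouse 2 stood apart from its group. Over the 55 tested ribosomal protein genes, differences between pairs of adherent mouse 2 arrays had an SD of 0.132 to 0.343, against 0.104 to 0.13 in adherent mouse 1 and 0.116 to 0.193 in the spheroids. In such bulk RNA, fewer cells of a type and less RNA per cell cannot be told apart.

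Promoters of ribosomal protein genes usually lack a TATA box and carry a pyrimidine tract around the transcription start, which becomes the first bases of the message. RefSeq start sites (build GRCm38.p6) matched 54 of the 65 symbols, with 64 windows of 250 bases before to 50 bases after a start. A tract of at least 10 pyrimidines within 25 bases of the start, on the sense strand, was found in 29.7% of these windows. Over the 32851 windows of all genes the share was 9.28%. The letters CCGGAAG, a core of binding sites of the ETS factors, occurred on either strand in 37.5% of the ribosomal protein windows against 8.86% of all windows. TATAAA occurred in 9.38% against 13.6%, and CTTTCC, which can lie within a pyrimidine tract, in 48.4% against 26.6%. These are descriptions of letters in a window and not binding sites.

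The following 6 stretches, 50 bases before to 20 bases after the start, belong to genes with a matched start whose probes moved far or disagreed in the comparisons below, picked with their values known, and the capitals mark the longest run of pyrimidines in each. They lie at chr7:118116128-118116197 (minus strand, Rps15a), chr4:152324386-152324455 (plus strand, Rpl22, the upstream of 2 starts), chr17:46782637-46782706 (minus strand, Rpl7l1), chr11:97782420-97782489 (minus strand, Rpl23), chr7:24884542-24884611 (plus strand, Rps19, the most upstream of 3 starts) and chr1:39367801-39367870 (plus strand, Rpl31).
Rps15a: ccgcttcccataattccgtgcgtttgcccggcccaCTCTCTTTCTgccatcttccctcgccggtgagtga
Rpl22: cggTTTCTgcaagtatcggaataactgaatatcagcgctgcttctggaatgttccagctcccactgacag
Rpl7l1: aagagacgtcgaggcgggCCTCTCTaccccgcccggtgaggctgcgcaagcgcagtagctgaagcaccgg
Rpl23: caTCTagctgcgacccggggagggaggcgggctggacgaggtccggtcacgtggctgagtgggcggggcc
Rps19: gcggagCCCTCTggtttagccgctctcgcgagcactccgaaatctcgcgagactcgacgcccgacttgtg
Rpl31: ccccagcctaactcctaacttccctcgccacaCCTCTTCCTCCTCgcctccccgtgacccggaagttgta
The run was 10 bases long in Rps15a, whose probe had the lowest spheroid value against adherent culture, and 13 in Rpl31, whose brightest probe barely moved. It was 3 bases long in Rpl23, the gene with the highest spheroid value against adherent culture, and 5 to 7 in the other 3 windows. All 6 marked runs end before the annotated start, so none holds the first bases of a message that begins there. Only the runs of Rps15a and Rpl31 lie within 25 bases of the start. Run length was not tested against the spheroid difference.

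Of the 65 symbols, 55 were tested, among 10112 tested genes. The other 10, Rpl14, Rpl17, Rpl39l, Rpl3l, Rpl6, Rps20, Rps23, Rps23rg1, Rps4l and Rpsa, had no probe above background on all 3 arrays of any culture. Some of their probes were detected on fewer arrays, as for Rpl6 on 2 of 3 in both adherent cultures, and failing the filter says nothing about the transcripts. Those 55 comprised 27 large subunit genes, 20 small subunit genes, the 3 stalk genes, 4 paralogs (Rpl7l1, Rps27l, Rpl22l1 and Rpl36al) and Rps19bp1, and all were detected on all 9 replicate arrays. Many ribosomal protein genes have processed pseudogenes that closely match the message, and whether a probe also reads such copies was not tested.

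**Figure D1:**
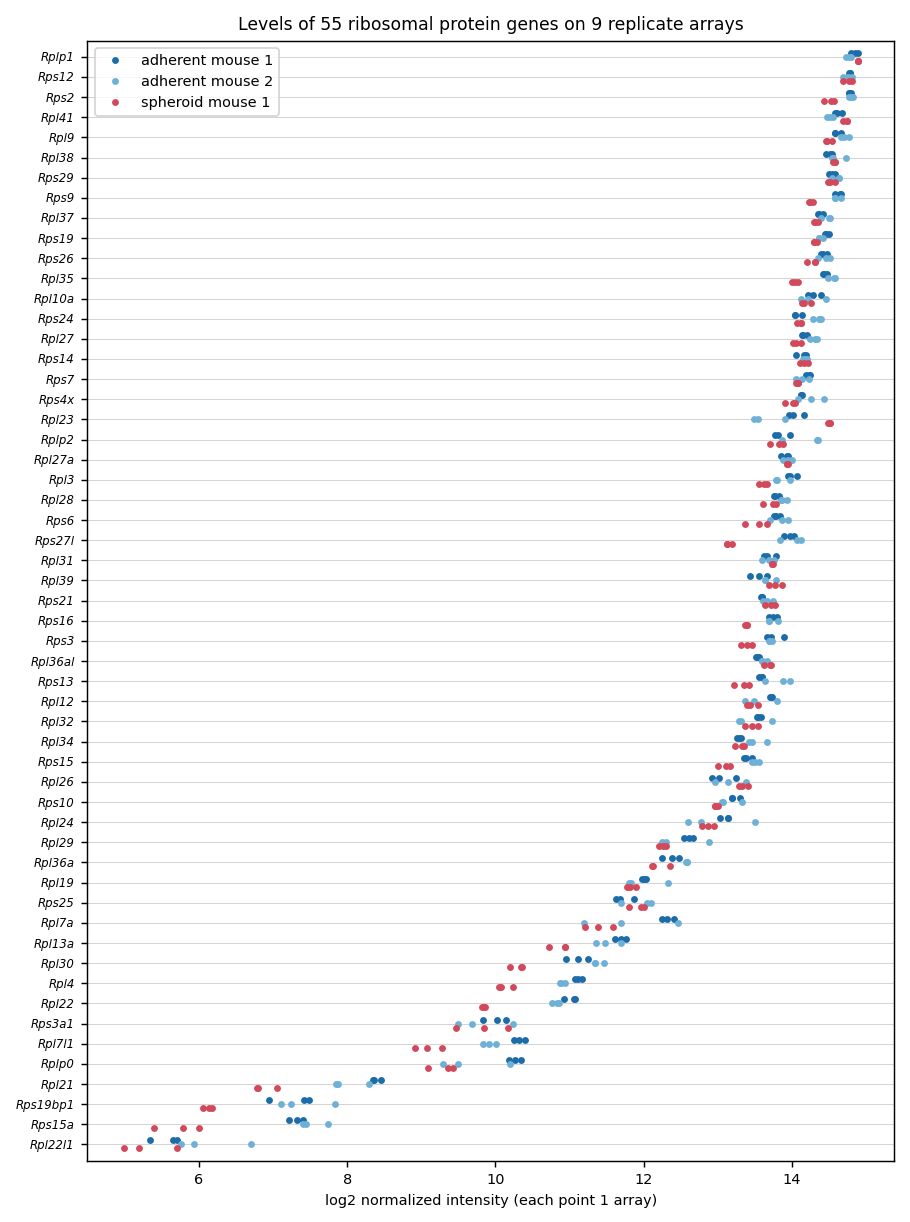
Normalised log2 intensity (horizontal axis) of the 55 tested genes, 1 row a gene, ordered by mean brightness; each point is 1 of 9 replicate arrays, coloured by culture. Most rows lie above 13 with the 3 cultures close together, and red spheroid points separate to the left mainly in the dim rows at the bottom, such as Rps15a and Rpl21.

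These genes were bright. Of the 100 brightest probes of the array, 22 belonged to them and 44 had no gene symbol. Between 22 and 29 of the 55 genes reached at least 50% of the highest probe signal of their array in the adherent cultures, and 14 to 18 did so in the spheroids. Mean normalised log2 intensity over the 55 was 12.93 ± 0.02 (SD, n = 3 arrays) in adherent mouse 1, 12.93 ± 0.087 in adherent mouse 2 and 12.64 ± 0.029 in the spheroids. Before any correction they carried 4.12% to 4.27% of the summed raw signal in adherent mouse 1, 3.87% to 4.59% in adherent mouse 2 and 3.68% to 3.79% in the spheroids. The spheroid range lay below both others, but the raw sum includes background on every probe. That sum was smaller on spheroid arrays (14701200 to 16503300 units) than on adherent arrays (17073200 to 20630300), so background weighs more on the spheroid shares. Shares without background were not computed.

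The first question was whether spheroid cells differed from adherent cells, taken as the equally weighted mean of both adherent cultures. A gene was called when limma's moderated test, adjusted by Benjamini-Hochberg over all 10112 genes, gave an adjusted p under 0.05 and the change was at least 2-fold. No ribosomal protein gene was called higher, where 13.1% of all tested genes were, and 5 of 55 (9.09%) were called lower, where 13.4% of all tested genes were. The 5 were Rps15a, Rpl21, Rpl22, Rpl7l1 and Rps19bp1. By adjusted p alone, at any size of change, 29 were lower (52.7%, against 34.4% of all genes) and 4 were higher (7.27%, against 29.3% of all genes), namely Rpl23, Rpl26, Rpl39 and Rpl41. These counts depended on the scaling between arrays, with 13 lower and 23 higher under cyclic loess and 48 lower and 1 higher under median scaling. By the 2-fold rule cyclic loess called 3 lower and 1 higher, the latter being Rpl23 at 1.02. On 24 genes every spheroid array lay below every adherent array (28.6% of all genes did), and on Rpl23 and Rpl41 every spheroid array lay above (25% of all genes did).

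The median log2 difference over the 55 genes was -0.17, against -0.06 over all tested genes, with a range from -1.70 to 0.66. Differences were below 0 for 43 genes and above 0 for 12. The subunits were alike in this respect, with medians of -0.16 over 27 large subunit genes and -0.18 over 20 small subunit genes. That direction depended on the scaling between arrays: the median was -0.57 after median scaling (all genes -0.35) and 0.09 after cyclic loess (all genes 0.03). Under cyclic loess 30 of the 55 genes lay above 0 and 25 below. Spheroid arrays were dimmer at the bright end, with the 100th-ranked probe at 12160 to 14188 raw units against 16222 to 18805 on adherent arrays, and this is the part of the scale where most of these genes lie.

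**Figure D2:**
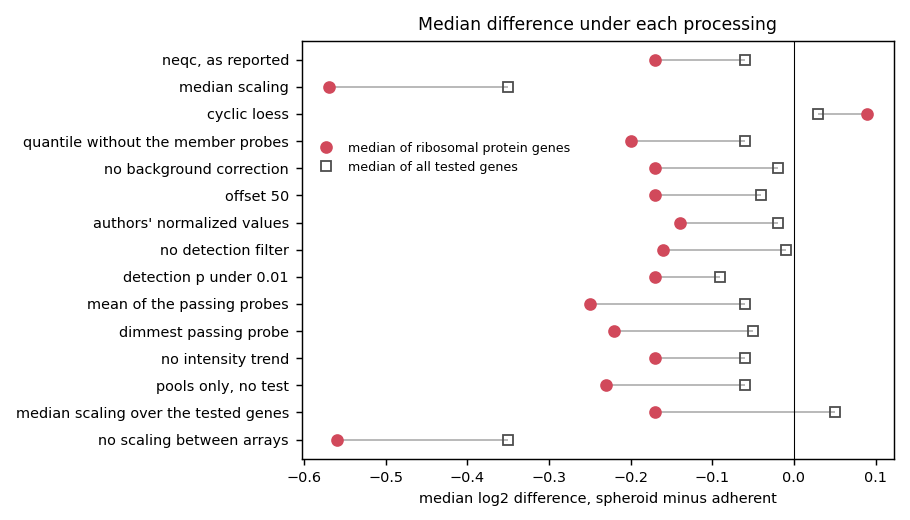
Median log2 difference, spheroid minus adherent (horizontal axis), over the ribosomal protein genes (filled circles) and over all tested genes (open squares) under each way of processing the arrays (rows). The ribosomal protein median runs from -0.57 with median scaling to 0.09 with cyclic loess, the only setting drawn in which it is above 0, and the open squares shift with it under these settings.

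Rps15a, a protein of the small subunit, had the lowest spheroid value relative to adherent culture. Its log2 intensity was 7.21, 7.40 and 7.33 in adherent mouse 1, 7.74, 7.40 and 7.45 in adherent mouse 2 and 5.39, 5.78 and 6.00 in the spheroids. Every spheroid array lay below every adherent array. The difference was -1.70 ± 0.15 (SE; adjusted p = 4.31e-07, limma), or 0.308 times the adherent level. The probe was dim, at 254 to 355 raw units in the adherent arrays and 156 to 185 in the spheroids, where the median probe of an array read about 133 to 150; without background correction the difference was -0.76.

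Rpl21, of the large subunit, was read by 3 detected probes. Its brightest gave 8.35, 8.36 and 8.46 in adherent mouse 1, 8.29, 7.85 and 7.88 in adherent mouse 2 and 6.80, 6.78 and 7.06 in the spheroids. The spheroid arrays lay below all adherent arrays on this probe and on the other two, with differences of -1.32 ± 0.13 (adjusted p = 8.16e-07), -1.32 and -1.07. All 3 probes were dim, and without background correction the first difference was -0.80.

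Rpl22, a large subunit protein that binds RNA and is needed for T cell development in mice, read 11.07, 10.92 and 11.06 in adherent mouse 1, 10.77, 10.83 and 10.86 in adherent mouse 2 and 9.82, 9.85 and 9.86 in the spheroids. The spheroid arrays lay well below both adherent groups, with no overlap. The difference was -1.08 ± 0.07 (adjusted p = 1.28e-08), or 0.474 times the adherent level; it was -0.99 without background correction and -0.90 under cyclic loess, where the 2-fold rule was no longer met. Its paralog Rpl22l1 was near background and read 5.65, 5.70 and 5.34, then 6.70, 5.94 and 5.76, then 5.19, 4.99 and 5.70 in the same order of cultures. Spheroid and adherent arrays overlapped for Rpl22l1, whose difference was -0.56 ± 0.22 (adjusted p = 0.0448).

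Rpl7l1, a relative of Rpl7 linked to assembly of the large subunit, read 10.25, 10.40 and 10.32 in adherent mouse 1, 10.01, 9.83 and 9.92 in adherent mouse 2 and 8.92, 9.08 and 9.28 in the spheroids. Its 3 cultures did not overlap with one another. Against the adherent mean the difference was -1.03 ± 0.09 (adjusted p = 3.75e-07), and without spheroid replicate 1 it was -0.94 and no longer met the 2-fold rule. The same held without background correction (-0.89) and under cyclic loess (-0.85). A second, dim probe gave -0.98.

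Rps19bp1, also known as a regulator of the deacetylase Sirt1, read 6.94, 7.48 and 7.42 in adherent mouse 1, 7.83, 7.11 and 7.24 in adherent mouse 2 and 6.06, 6.14 and 6.18 in the spheroids, without overlap. Its difference was -1.21 ± 0.18 (adjusted p = 4.24e-05), and -0.58 without background correction. Leaving it out, 4 of the remaining genes were called lower and none higher.

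Several further genes came close to the 2-fold rule. Rpl30, which lies on the large subunit side of the contact between subunits, read 10.96, 11.11 and 11.25 in adherent mouse 1, 11.34, 11.47 and 11.34 in adherent mouse 2 and 10.34, 10.36 and 10.20 in the spheroids. The groups did not overlap, and the difference was -0.94 ± 0.08 (adjusted p = 2.12e-07). Rps27l, a paralog of Rps27 and a target of p53, was the bright gene that moved furthest down: 13.98, 13.89 and 14.03, then 13.84, 14.13 and 14.07, then 13.19, 13.12 and 13.12. All spheroid arrays lay below the adherent ones, with a difference of -0.85 ± 0.07 (adjusted p = 1.19e-07), although its signal on adherent arrays was 51% to 68% of the highest probe signal. Rpl4 at -0.88 (adjusted p = 1.22e-07) and Rpl13a at -0.73 (adjusted p = 4.60e-06) followed.

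Stalk genes differed among themselves. Rplp1 gave the highest probe signal of all on each spheroid array, and read 14.80, 14.86 and 14.89 in adherent mouse 1, 14.77, 14.73 and 14.80 in adherent mouse 2 and 14.89 on all 3 spheroid arrays, a value fixed by quantile normalisation for the top-ranked probe. Rplp2 overlapped between cultures at 13.82, 13.78 and 13.98, then 13.87, 14.35 and 14.34, then 13.88, 13.83 and 13.70, with a difference of -0.22 ± 0.10 (adjusted p = 0.0646). Rplp0, the base of the stalk, read 10.26, 10.35 and 10.19, then 10.20, 9.50 and 9.29, then 9.09, 9.36 and 9.43, and was lower by -0.67 ± 0.16 (adjusted p = 0.0023). For Rplp0 the spheroid arrays lay below all of adherent mouse 1 and overlapped adherent mouse 2.

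Rpl23, a large subunit protein that also binds Mdm2, the ubiquitin ligase of p53, was the gene with the highest spheroid value relative to adherent culture. Its brightest probe read 13.96, 14.17 and 14.02 in adherent mouse 1, 13.91, 13.54 and 13.49 in adherent mouse 2 and 14.51, 14.52 and 14.49 in the spheroids. Every spheroid array was above every adherent array, by 0.66 ± 0.08 (adjusted p = 1.29e-05), or 1.58 times the adherent level, and by 0.38 to 1.02 under the scalings tried. A second bright probe was higher by 0.27 and another, dim probe gave -0.19 (adjusted p = 0.0506), so its probes did not move as one.

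Of the other 3 genes that were higher by adjusted p alone, Rpl41, which encodes a very short basic peptide, read 14.59, 14.61 and 14.68, then 14.52, 14.48 and 14.56, then 14.75, 14.75 and 14.69. Its spheroid arrays lay just above all adherent arrays, by 0.16 ± 0.05 (adjusted p = 0.0108). Rpl26 (0.23, adjusted p = 0.0404) and Rpl39, which lines the exit tunnel of the nascent chain (0.16, adjusted p = 0.0461), overlapped between groups. Under median scaling Rpl39 turned to -0.31.

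Among members with a known further role, Rps6, the substrate of the S6 kinases, read 13.76, 13.84 and 13.79 in adherent mouse 1, 13.71, 13.87 and 13.95 in adherent mouse 2 and 13.67, 13.56 and 13.37 in the spheroids. The groups were close but did not overlap, at -0.29 ± 0.07 (adjusted p = 0.00341). Rps3, which also acts in DNA repair, was lower by -0.34 (adjusted p = 0.000279), Rpl3, near the peptidyl transferase centre, by -0.31 (adjusted p = 0.000464) and the X-linked Rps4x by -0.20 (adjusted p = 0.0213). The paralogous pair Rpl36a and Rpl36al differed in sign, at -0.27 (adjusted p = 0.00503) and 0.11 (adjusted p = 0.0848), and the second did not pass the test. Rps12, among the brightest, read 14.79, 14.78 and 14.77, then 14.81, 14.69 and 14.76, then 14.77, 14.81 and 14.69, with complete overlap and a difference of -0.01 ± 0.05 (adjusted p = 0.875).

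Set against each adherent culture separately, the spheroids gave similar counts; both comparisons share the spheroid arrays. Against adherent mouse 1, 5 genes were called lower (14.1% of all genes) and none higher (13.4% of all genes), with a median of -0.17 against -0.06 for all genes. Against adherent mouse 2, 4 were called lower (13.6% of all genes) and none higher (13.2% of all genes), with a median of -0.22 against -0.05. Rps15a, Rpl21 and Rps19bp1 were called in both comparisons, Rpl22 and Rpl7l1 in the first alone (second: -0.98 and -0.83) and Rpl30 in the second alone (first: -0.81). By adjusted p alone 24 were lower and 4 higher against mouse 1 (32.2% and 26.6% of all genes) and 29 lower and 2 higher against mouse 2 (32% and 28% of all genes). The spheroid arrays lay below all arrays of adherent mouse 1 on 31 genes and above them on 7 (37.3% and 31.3% of all genes), and below all arrays of adherent mouse 2 on 30 and above them on 3 (33.1% and 29.3% of all genes). Without adherent mouse 2 replicate 1, Rpl21 stood at -0.99 against adherent mouse 2 and was not called, and without spheroid replicate 3 the count against adherent mouse 1 was 8.

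**Figure D3:**
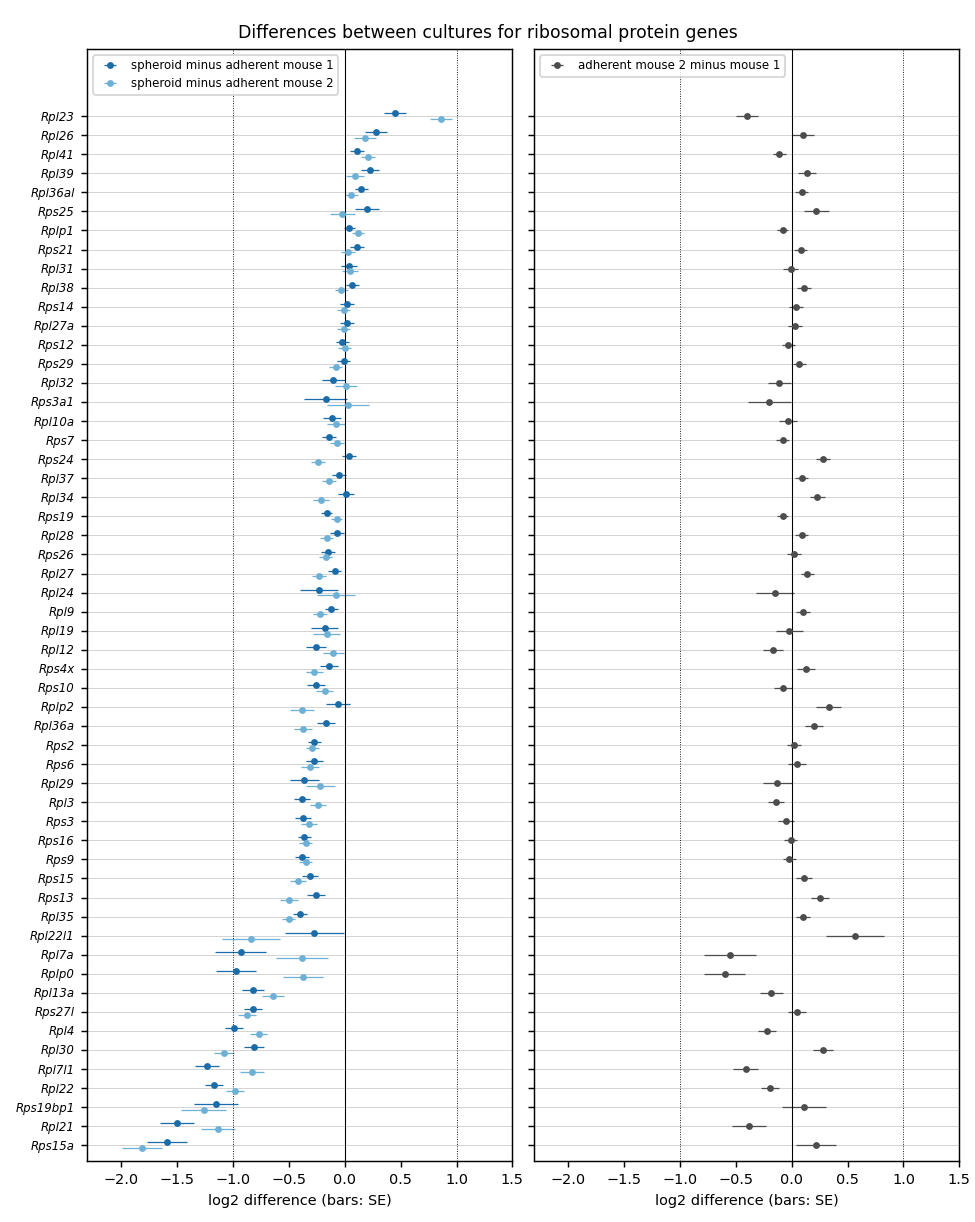
Log2 differences (points) with SE (bars) for the 55 tested genes, ordered by the spheroid against adherent difference; left, spheroid minus each adherent culture, right, adherent mouse 2 minus adherent mouse 1; dotted lines mark a 2-fold change. On the left only Rps15a, Rpl21 and Rps19bp1 pass the lower line against both cultures and no point reaches the upper one; on the right no point reaches either line.

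The adherent cultures of the 2 mice differed less. None of the 55 genes was called at 2-fold, where 1.41% of all genes were higher in mouse 2 and 1.05% lower, and the median difference was 0.02 against -0.01 over all genes. By adjusted p alone Rps24 was higher in mouse 2 (6.43% of all genes were), and Rpl23, Rpl7l1 and Rplp0 were lower (6.92% of all genes were). Rps24 read 14.04, 14.14 and 14.04 in adherent mouse 1, 14.28, 14.37 and 14.39 in adherent mouse 2 and 14.13, 14.07 and 14.13 in the spheroids. On this probe the mouse 2 arrays lay above all others, by 0.28 ± 0.06 over mouse 1 (adjusted p = 0.00909). The other detected Rps24 probes gave -0.45 (adjusted p = 0.205, limma over all probes) and -0.18 (adjusted p = 0.643) for mouse 2 over mouse 1. Over the 55 genes the arrays of mouse 2 lay above all those of mouse 1 on 13 (14.8% of all genes) and below them on 7 (16.1% of all genes). Culture and animal are both fixed within each group here, so a difference between mice and one between dishes cannot be told apart. The counts by adjusted p alone were unstable. Without adherent mouse 2 replicate 1 they were 6 higher and 15 lower, without array a 1 and 0, without array b 3 and 0, without adherent mouse 1 replicate 1 0 and 1, without replicate 2 1 and 0, and without replicate 3 1 and 1. They were 0 and 0 in a fit without the intensity trend.

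With the scale's upper end in view, the 55 genes were split by brightness. For 24 of them the brightest probe reached at least 50% of the array's highest signal on all 3 arrays of a culture; their median difference between spheroid and adherent was -0.11 and none was called. The other 31 had a median of -0.29 and held all 5 calls. The files carry no flag for saturated beads, so closeness to the highest signal stands in for it, and a smaller measured difference near the top cannot be told apart from a smaller difference in the cells. The threshold fell in a dense range: taking for each gene the lowest array of its best culture, Rpl3, just inside, stood at 51.5%, and Rps16 and Rps6, just outside, at 49.3% and 49.0%.

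Over all 77 detected probes of these genes the pattern by mean raw brightness was stepped. The 11 probes under 1% of the highest signal had a median difference of -0.98, the 7 at 1% to 5% -1.03 and the 10 at 5% to 10% -0.86. Above that, the 5 probes at 10% to 25% had -0.27, the 20 at 25% to 50% -0.19 and the 24 at 50% or more -0.10. Other detected probes had medians of -0.03, -0.14, -0.21, -0.26, -0.21 and -0.09 in the same bins, so that ribosomal protein probes lay below other probes in the 3 dim bins and beside them in the 3 bright ones. Bright probes of other genes could still differ: at a mean of 50% or more, 10 of 80 were called, with a range from -4.00 to 1.22. By the rule of the split above, at least 50% on all 3 arrays of a culture, 48 other genes were near the top. Of these, 12 were called higher and 10 lower (13.1% and 13.4% of all tested genes), from -4.00 to 6.64. That rule also takes in genes bright in 1 culture alone.

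**Figure D4:**
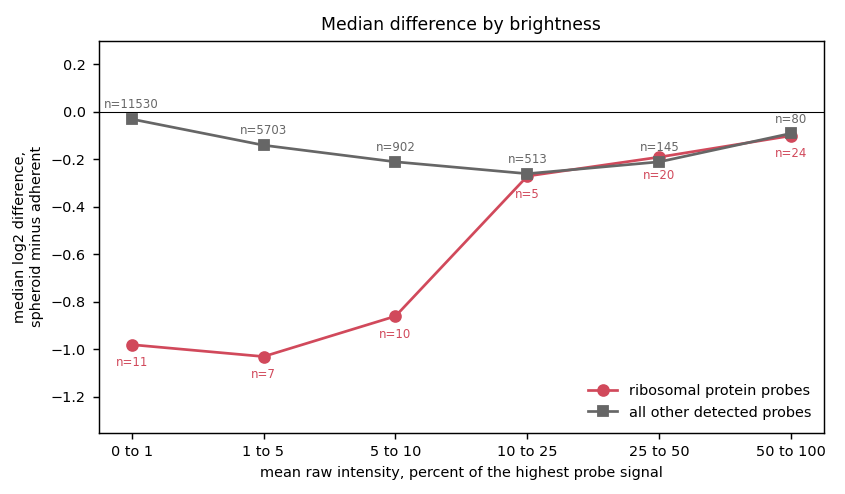
Median log2 difference, spheroid minus adherent (vertical axis), of ribosomal protein probes (red circles) and all other detected probes (grey squares) in 6 bins of mean raw intensity as a percent of the highest probe signal (horizontal axis); numbers give the probes in each bin. The red line lies near -1 in the 3 dim bins, which hold 11, 7 and 10 probes of fewer genes, and meets the grey line from 10% upward.

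Across the 55 genes the rank correlation of brightness with difference was 0.52 (Spearman), across the 77 probes 0.66 and across the 44 genes above 10% of the highest signal 0.19. These correlations are descriptions across genes that share arrays and normalisation, and probes of a gene are not independent.

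Several genes carried more than 1 detected probe, at different brightness. Of 17 such ribosomal protein genes, 12 (70.6%) had a lower spheroid difference on the dimmest detected probe than on the brightest, against 52.3% of 3899 other genes. The median differences were -0.78 on the dim and -0.12 on the bright probes, against -0.10 and -0.12 for the other genes. Where the brightest probe was at 25% of the top or more, the share was 69.2% of 13 ribosomal protein genes and 50% of 56 other genes. Their medians on dim and bright probes were -0.54 and -0.10, against -0.03 and -0.11. For Rps19, mutated in some forms of Diamond-Blackfan anaemia, the bright probe read 14.46, 14.50 and 14.45, then 14.37, 14.42 and 14.37, then 14.30, 14.34 and 14.30. The spheroid arrays lay below the others on this probe, by -0.12 ± 0.05 (adjusted p = 0.0423). Its dim probe read 7.71, 7.41 and 7.58, then 7.71, 7.22 and 7.30, then 5.62, 6.10 and 6.10, also without overlap, and gave -1.55 ± 0.16 (adjusted p = 1.87e-06 over all probes).

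Rpl31, at the exit of the tunnel, behaved likewise. Its brightest probe read 13.67, 13.62 and 13.79, then 13.76, 13.69 and 13.60, then 13.73, 13.75 and 13.73, overlapping throughout, with a difference of 0.05 (adjusted p = 0.5). Its other 2 probes, at about 7% of the highest signal, read lower in the spheroids without overlap, by -1.01 and -1.22. Rpl27a gave 0.00 on its bright probe and -0.85 on its dim one, Rpl38 0.02 and -0.78, Rpl28 -0.12 and -0.91, Rps13 -0.38 and -0.88, and Rps24 -0.10 on the brightest and -0.54 on the dimmest, with -1.46 on another.

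Some genes went the other way. Rps2, at the entrance of the message channel, had 2 probes near the top: the brighter read 14.77, 14.77 and 14.80, then 14.77, 14.80 and 14.83, then 14.43, 14.57 and 14.53, and the second 14.63, 14.63 and 14.61, then 14.69, 14.59 and 14.51, then 14.81, 14.74 and 14.71. On the first the spheroid arrays lay below all others (-0.28, adjusted p = 0.000208, but 0.63 under cyclic loess and 0.43 under median scaling over the tested genes) and on the second above all others (0.14, adjusted p = 0.033 over all probes). Rps3 also gave a smaller difference on its dim probe (-0.16) than on its bright one (-0.34), while the 2 probes of Rps9 were close (-0.36 and -0.43). Whether the probes of a gene read the same transcripts was not tested.

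**Figure D5:**
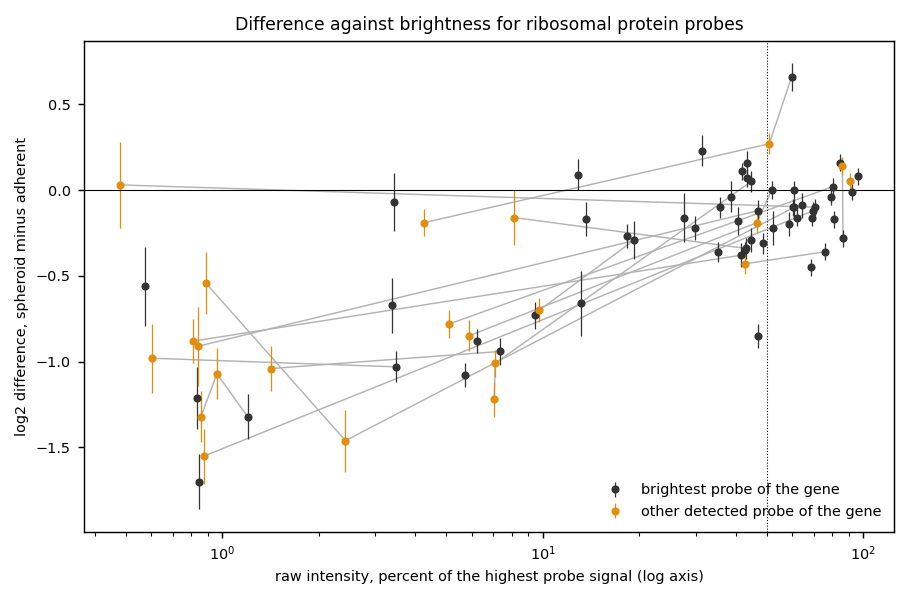
Log2 difference, spheroid minus adherent, with SE (vertical axis) against mean raw intensity as a percent of the highest probe signal (horizontal log axis) for the 77 detected ribosomal protein probes; black, the brightest probe of a gene, orange, its other probes, joined by grey lines. Orange points under 10% lie mostly between -0.5 and -1.55 while most of their brighter partners lie nearer 0, as for Rps19 (-0.12 on the bright probe and -1.55 on the dim one); the dotted line marks 50%.

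Ribosomal protein messages are made alongside other parts of the translation machinery, and those lists were read in the same fit. Of 35 tested genes for ribosome assembly, 23 were called lower in the spheroids and none higher (backgrounds as above, 13.4% and 13.1%), with a median of -1.24. The largest falls were in Ncl, the nucleolar protein nucleolin (-2.67, adjusted p = 2.20e-10), Grwd1 (-2.61) and Mrto4 (-2.03), and Sbds, which acts late in large subunit maturation, was higher at 0.70 without reaching 2-fold. Of 20 initiation factors, 3 were called lower (Eif2s2, Eif3b and Eif2b1, -1.33 to -1.19) and none higher. The share called lower was close to the 13.4% of all tested genes, and the median was -0.59 (all genes -0.06). Of 18 elongation factors and other messages known for a pyrimidine start, 4 were called lower (Nap1l1, Hnrnpa1, Npm1 and Eif2s3x, -1.77 to -1.01) and none higher, with a median of -0.35.

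Among 14 genes of mTOR signalling and ribosomal gene control, Tsc1, a brake on mTOR, was called higher (1.32, adjusted p = 4.91e-05) and none was called lower. The median over the 14 genes was -0.02. By adjusted p alone 5 of them were higher and 5 lower, where 29.3% and 34.4% of all genes were. Among those lower, Myc stood at -0.98 (adjusted p = 0.000259) and Mlst8 at -0.81 (adjusted p = 9.53e-07). Larp4 stood at -0.78 (adjusted p = 0.000891), Larp1 at -0.66 (adjusted p = 0.00407) and Akt1s1 at -0.54 (adjusted p = 0.00272). Among those higher, Eif4ebp1 stood at 0.81 (adjusted p = 0.00021) and Tsc2 at 0.60 (adjusted p = 1.26e-05). Max stood at 0.64 (adjusted p = 0.00264) and Mtor itself at 0.38 (adjusted p = 0.0405). Apart from Tsc1, no gene of this list met the 2-fold rule. Of 71 proteins of the mitochondrial ribosome, 10 were called lower and none higher, a share close to the 13.4% of all tested genes called lower, with a median of -0.47 (all genes -0.06); Mrps28 was lowest at -1.79. The probes of these lists sat elsewhere on the intensity scale, with a median log2 signal of 8.85 for the assembly genes and 13.66 for the cytosolic ribosomal proteins. Where ribosomal protein probes were themselves dim, under 10% of the highest signal, their medians were -0.86 to -1.03, as given above.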

How the data were processed

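Biotinylated cRNA was hybridised to Illumina mouse bead arrays, per the labels' protocols. The authors deposited a table of raw bead intensity with a detection p-value for each probe and array, per the file headers, and a normalized intensity table whose normalization is not given in the sources used here. The scanner software is likewise not given in the sources used here. Arrays carry the names of their samples, except that 2 arrays of adherent mouse 2 share a name and are called array a and array b, so the replicate number is not known for these 2. The platform annotation named 34773 probes with 1 gene symbol and 18 with several.

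The raw table was processed with neqc of limma 3.58.1 in R 4.3.3 (normexp background from the detection p-values, offset 16, quantile normalization over 12 arrays, log2). A mean per culture was fitted over the 9 replicate arrays with lmFit and eBayes (intensity trend), p-values were adjusted by Benjamini-Hochberg over all tested genes, and the 3 pools stayed outside the fit. The fit was tested on simulated data. The number of arrays limits the precision. Members and gene lists were chosen with earlier results of these data known. Values are given in full for genes called in any comparison, the 5 largest and 5 smallest differences, the 5 brightest and 5 dimmest genes, genes with set roles, and genes whose probes disagree. Alternatives covered scaling, background, filters, probe choice, each array left out and the replicate block; 2 scalings were added after the data were seen.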

Additional observations from a re-analysis of the deposited data

Results flagged for a closer look

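For 4 ribosomal protein genes the spheroid difference was not the same against both adherent cultures. As both differences share the spheroid arrays, the test of their gap is the limma test between the adherent cultures. For Rps24 the difference against adherent mouse 2 (-0.24) minus that against adherent mouse 1 (0.04) was -0.28 on the log2 scale (adjusted p = 0.00909). For Rpl23 the gap was 0.40 (0.86 and 0.45, adjusted p = 0.0162), for Rpl7l1 0.41 (-0.83 and -1.23, adjusted p = 0.0252) and for Rplp0 0.60 (-0.37 and -0.97, adjusted p = 0.0486). Rplp0 varied within adherent mouse 2, at 10.20 on replicate 1 and 9.50 and 9.29 on the other arrays. Of these 4 calls, the 3 genes lower in adherent mouse 2 were all lost without array a and without array b, and no call remained in a fit without the intensity trend. The second bright probe of Rpl23 gave 0.27 against both adherent cultures, with no gap (adjusted p = 0.95). Other probes of Rpl7l1 and Rps24 reversed the order. The second, dim Rpl7l1 probe gave -0.86 against adherent mouse 1 and -1.11 against adherent mouse 2. The other detected Rps24 probes gave -1.68 and -0.63 against adherent mouse 1 and -1.23 and -0.45 against adherent mouse 2. These reversed gaps did not pass the test (adjusted p = 0.542, 0.205 and 0.643, limma over all probes). With 3 arrays a culture, single arrays were not tested as outliers.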

How the results depend on the processing

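The counts called in spheroids against the adherent mean, adherent mouse 1 and adherent mouse 2 (5, 5 and 4) and the medians (-0.17, -0.17 and -0.22) moved most with scaling. Median scaling gave 11, 11 and 10 calls with medians of -0.57, -0.48 and -0.62, and no scaling, added after seeing the data, 11, 11 and 10 with -0.56, -0.43 and -0.64 (0.12 between adherent cultures). Median scaling over tested genes called 1 gene higher against adherent mouse 2, and cyclic loess 1 there and 1 against the mean. Cyclic loess gave medians of 0.09, 0.12 and 0.05 and 3 calls against adherent mouse 1. Median scaling over tested genes, also added later, gave 8 calls against adherent mouse 1 and medians of -0.12 against adherent mouse 2 and -0.13 between adherent cultures. Counts were 0, 2 and 1 without background correction, 3 against the mean and 2 against mouse 2 with offset 50, and 1, 3 and 1 on the authors' normalized values. Averaged probes gave medians of -0.25 (mean) and -0.26 (mouse 1). The dimmest probes gave -0.26 (mouse 1) and 8 calls against mouse 2. Without genes near the top the medians were -0.29, -0.27 and -0.32, and the pools gave -0.23. Leaving out each array gave 4 to 5, 5 to 8 and 4 to 5 calls and medians of -0.20 to -0.16, -0.17 to -0.15 and -0.23 to -0.14. Between the adherent cultures calls stayed at 0 and medians ran from -0.01 to 0.04. Under cyclic loess 25 of 55 genes lay below 0 against 43 as reported. Among genes named by rule, and where either value was called or both passed the adjusted p, sign turned for Rpl39 (-0.31 with median scaling, -0.30 with none), Rpl9 (0.26), Rps19 (0.21) and Rps2 (0.63) under cyclic loess, Rps2 on its dimmest probe (0.14) and with median scaling over tested genes (0.43), and Rpl31 on its dimmest probe (-1.22). The cause of these shifts was not tested. Of 1116 values of 45 named gene results, 1047 kept direction and call, 48 lost the call, 13 gained it and 8 turned. Same-numbered arrays correlated at -0.25 to 0.11 after removing group means. No pairing by number was seen, but with 3 arrays a culture these correlations cannot exclude one. With the replicate block on the authors' normalized values the counts were 1, 3 and 1, as without it. With spheroid and adherent mouse 1 alone the block gave 5.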
